A study of Mus musculus with 8 samples.

Results

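A set of 10 choroid plexus marker genes was followed across all 8 libraries of a mouse prefrontal cortex series: Ttr, Kl, Folr1, Clic6, Aqp1, Slc4a5, Otx2, Prlr, Kcnj13 and Enpp2. They are known from the choroid plexus, and they were chosen by how their levels vary together across these libraries, so that shared variation is a description here and was not tested. All 10 were found among 54446 genes in the count table and all 10 passed the filter on low counts, which kept 17636 genes. RNA came from the medial prefrontal cortex, and 4 libraries were labelled Ino80e overexpression and 4 wild type. Per the series' design text, the risk gene was altered in this region by injecting adeno-associated virus. The sources used here give neither the promoter in the virus, nor the strain or age of the mice, nor a control virus for wild type. No label ties a library to its own mouse, so a p-value here covers the spread among the 8 libraries alone, and part of that spread may be technical.

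The choroid plexus is a frond of epithelium on a vascular core that hangs in the brain ventricles and secretes cerebrospinal fluid. Its epithelial cells move ions, bicarbonate and water into the ventricle and carry hormones and vitamins between blood and fluid. It is not part of the cortex, and its most abundant messenger RNA encodes transthyretin, a carrier of thyroid hormone and of retinol-binding protein. Enpp2 is also known from oligodendrocytes, and Otx2 is the homeobox factor that choroid plexus epithelium depends on.

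Start windows of 300 bases (250 before a start site and 50 after) were taken from the RefSeq table of the GRCm38.p6 build. They were used for 6 of the 10 genes, 11 windows in all. None was used for Ttr, Folr1, Clic6 and Enpp2, so the search below says nothing about these genes. The 250 bases before the start are shown for the windows with a match to a searched motif, and for Slc4a5, whose level had a wide range across libraries and whose window had no match. Capitals mark the match.
Otx2, chr14:48665110-48665359, minus strand: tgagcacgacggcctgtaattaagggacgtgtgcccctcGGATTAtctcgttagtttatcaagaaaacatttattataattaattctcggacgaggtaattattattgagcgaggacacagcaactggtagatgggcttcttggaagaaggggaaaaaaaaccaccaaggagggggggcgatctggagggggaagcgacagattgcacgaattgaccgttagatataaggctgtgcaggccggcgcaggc
Prlr, chr15:10223656-10223905, plus strand: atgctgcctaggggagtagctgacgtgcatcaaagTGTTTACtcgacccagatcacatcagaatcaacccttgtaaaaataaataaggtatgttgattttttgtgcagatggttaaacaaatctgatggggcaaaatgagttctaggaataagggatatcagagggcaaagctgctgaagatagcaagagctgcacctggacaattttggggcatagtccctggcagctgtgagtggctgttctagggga
Slc4a5, chr6:83237125-83237374, plus strand: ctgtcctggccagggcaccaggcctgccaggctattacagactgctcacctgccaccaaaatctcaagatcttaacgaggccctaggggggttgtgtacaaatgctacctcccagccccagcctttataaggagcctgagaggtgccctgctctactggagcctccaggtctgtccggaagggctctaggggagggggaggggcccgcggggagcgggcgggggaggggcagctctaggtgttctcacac
Both strands were searched for TAATCC, the core recognised by Otx factors, and for TGTTTAC, a forkhead core. The Otx core, read as GGATTA, was in 1 of the 11 windows, that of Otx2 itself, at 211 bases before the start (-211). Over 32817 windows of the same length in the RefSeq table it was in 7.06%. The forkhead core was in 1 window, of Prlr, at -215, against 3.65% of all windows. These matches describe letters and are not shown to be binding sites.

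Wild-type replicate 4 held the highest level of all 10 marker genes. Over all genes tested, 11.1% were highest in that library. Its level was between 3.30 times (Enpp2) and 123 times (Ttr) the median of the 8 libraries, and between 2.71 and 10.8 times the next library. Wild-type replicate 3 and replicate 3 labelled overexpression stood next for most of the genes: the 3 libraries that led for Ttr also led for 7 of the 10 genes, Ttr included, and for 1.29% of all genes tested. In bulk tissue a larger number of cells of a type and more RNA per cell cannot be told apart. Levels below are in CPM, read counts scaled to library size with TMM factors (trimmed mean of M-values), listed for replicates 1 to 4 of the group labelled overexpression and then for wild-type replicates 1 to 4.

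Ttr, the thyroid hormone carrier, stood at 7.75, 7.91, 90.6 and 4.63 CPM in the libraries labelled overexpression and at 8.02, 2.41, 90.8 and 982 CPM in wild type. It rested on 113 counts in wild-type replicate 2 and 49579 in wild-type replicate 4, a ratio of levels of 407 (95% exact interval 338 to 494, for counting error only). Both replicates 3 held nearly the same level, one in each group. Ttr took 0.101% of all counts in wild-type replicate 4 and between 2.3e-04% and 0.0091% in the other 7 libraries. The groups overlapped, with libraries under 10 CPM in both.

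**Figure D1:**
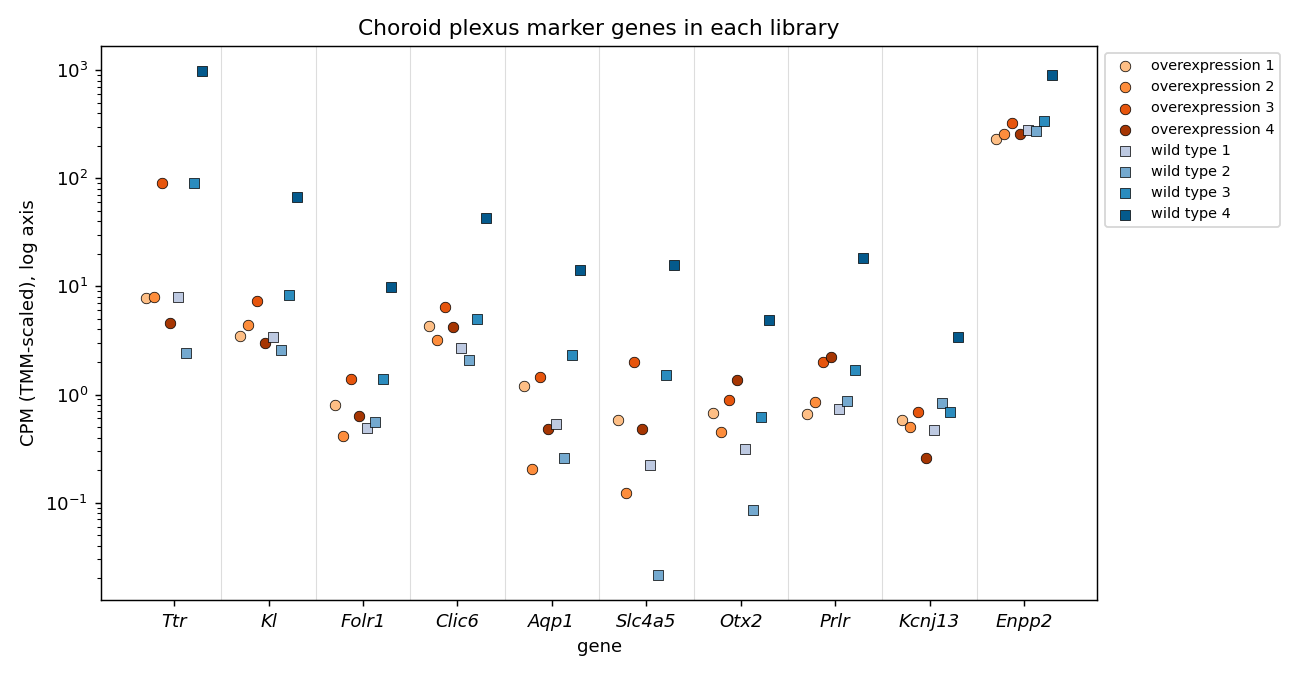
CPM of the 10 choroid plexus marker genes (log axis), 1 point per library, with circles for the libraries labelled overexpression and squares for wild type. Wild-type replicate 4 was the highest point for every gene, and Ttr in both replicates 3 stood between it and the other 5 libraries.

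Among the transport genes, Clic6, of the chloride intracellular channel family, stood at 4.31, 3.22, 6.48 and 4.17 CPM in the libraries labelled overexpression and at 2.72, 2.09, 4.997 and 42.8 CPM in wild type. Aqp1, the water channel of the epithelium's ventricular face, stood at 1.19, 0.207, 1.45 and 0.475 CPM and, in wild type, at 0.535, 0.256, 2.33 and 14.3 CPM. Both were highest in wild-type replicate 4 and had both replicates 3 next, with overexpression leading for Clic6 and wild type for Aqp1. Slc4a5, an electrogenic sodium bicarbonate cotransporter, stood at 0.577, 0.124, 2.02 and 0.475 CPM in the libraries labelled overexpression and at 0.223, 0.0214, 1.51 and 15.6 CPM in wild type. Its lowest library, wild-type replicate 2, held 1 count against 790 in wild-type replicate 4, a ratio of 733 with a 95% exact interval of 131 to 28974 for counting error only. The low end of Slc4a5 is therefore poorly fixed, and its range cannot be ranked against that of Ttr. Kcnj13, an inward-rectifier potassium channel, stood at 0.577, 0.496, 0.694 and 0.257 CPM and, in wild type, at 0.468, 0.833, 0.693 and 3.39 CPM. Of its exon length, 49.1% (623 bases) overlaps Gigyf2 on the opposite strand, so reads of that gene may be included in its low levels if strand was ignored in counting. For Kcnj13, wild-type replicate 2 was second with 39 counts. That was too close to order against 42 in replicate 3 labelled overexpression and 38 in wild-type replicate 3.

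Folr1, the folate receptor that carries folate into cerebrospinal fluid, stood at 0.808, 0.413, 1.39 and 0.633 CPM in the libraries labelled overexpression and at 0.490, 0.555, 1.40 and 9.82 CPM in wild type. Kl, which encodes klotho, a co-receptor for fibroblast growth factor 23, stood at 3.46, 4.44, 7.41 and 2.97 CPM and, in wild type, at 3.39, 2.56, 8.26 and 67.9 CPM. Both genes were highest in wild-type replicate 4, with both replicates 3 next; for Folr1 those were too close to order (77 and 84 counts). Prlr, the prolactin receptor, stood at 0.654, 0.847, 2.02 and 2.21 CPM in the libraries labelled overexpression and at 0.735, 0.876, 1.70 and 18.4 CPM in wild type. For Prlr, replicates 3 and 4 labelled overexpression came next and were too close to order (122 and 112 counts). Ttr stood at only 4.63 CPM in that replicate 4.

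Otx2, the homeobox factor, stood at 0.673, 0.454, 0.893 and 1.36 CPM in the libraries labelled overexpression and at 0.312, 0.0854, 0.620 and 4.85 CPM in wild type. Its counts ran from 4 to 245. Replicate 4 labelled overexpression was second, on 69 counts against 54 in replicate 3 of that label. Small parts of its exons overlap another gene on each strand (168 bases on its own strand and 154 on the other). Enpp2, which encodes autotaxin, the secreted enzyme that makes lysophosphatidic acid, stood at 229, 257, 325 and 256 CPM in the libraries labelled overexpression and at 280, 273, 336 and 912 CPM in wild type. It was the only one of the 10 that was abundant in every library. The summed level of 12 mature oligodendrocyte genes was 4533 to 6572 CPM in the libraries labelled overexpression and 5465 to 6578 CPM in wild type, none of the 12 at 0 counts. That sum was 1.04 times its median in wild-type replicate 4, where Enpp2 was 3.30 times its own.

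Per length of transcript, in RPKM (CPM per kilobase of exon), the order of the 10 genes differed between libraries. In wild-type replicate 4 the levels were 828 RPKM for Ttr, 158 for Enpp2, 10.9 for Clic6, 7.27 for Kl, 5.46 for Aqp1, 4.28 for Folr1, 2.696 for Slc4a5, 2.67 for Kcnj13, 1.20 for Prlr and 1.15 for Otx2. This is 1 library, so neighbours in that order carry no spread. At the median of the 8 libraries Enpp2 led with 47.9 RPKM, followed by Ttr with 6.72 and Clic6 with 1.08. The other 7 genes ran from 0.50 RPKM for Kcnj13 down to 0.0838 RPKM for Prlr. Overlaps with other genes took 203 bases of the exons of Prlr (same strand) and 345 of those of Enpp2 (opposite strand).

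The share of each gene's level in wild-type replicate 4 that lay above its 8-library median was 99.2% for Ttr, 96.6% for Slc4a5, 94.2% for Kl, 94.0% for Aqp1, 81.3% for Kcnj13 and 69.7% for Enpp2. In wild-type replicate 3 the share was 91.2% for Ttr and 17.8% for Enpp2. Per length, the excess of Folr1 over its median was 0.483% of that of Ttr in wild-type replicate 4, 0.426% in wild-type replicate 3 and 0.418% in replicate 3 labelled overexpression. For Enpp2 it was 13.4%, 14.8% and 12.1%, and for Kl 0.834%, 0.661% and 0.531%, in the same order. For Slc4a5 it was 0.317%, 0.244% and 0.369%. For Clic6 it was 1.20%, 0.277% and 0.821%, for Aqp1 0.625%, 0.801% and 0.323%, for Prlr 0.136%, 0.0383% and 0.0684%, and for Kcnj13 0.264%, 0.0654% and 0.0670%. Otx2 (0.121%, -0.0090% and 0.0836%) lay just under its median in wild-type replicate 3. The proportions have no test. For Kcnj13 the excess was only 0.058 CPM in wild-type replicate 3 and 0.059 CPM in replicate 3 labelled overexpression. These rested on levels of 38 and 42 counts, too few to fix its proportions there.

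**Figure D2:**
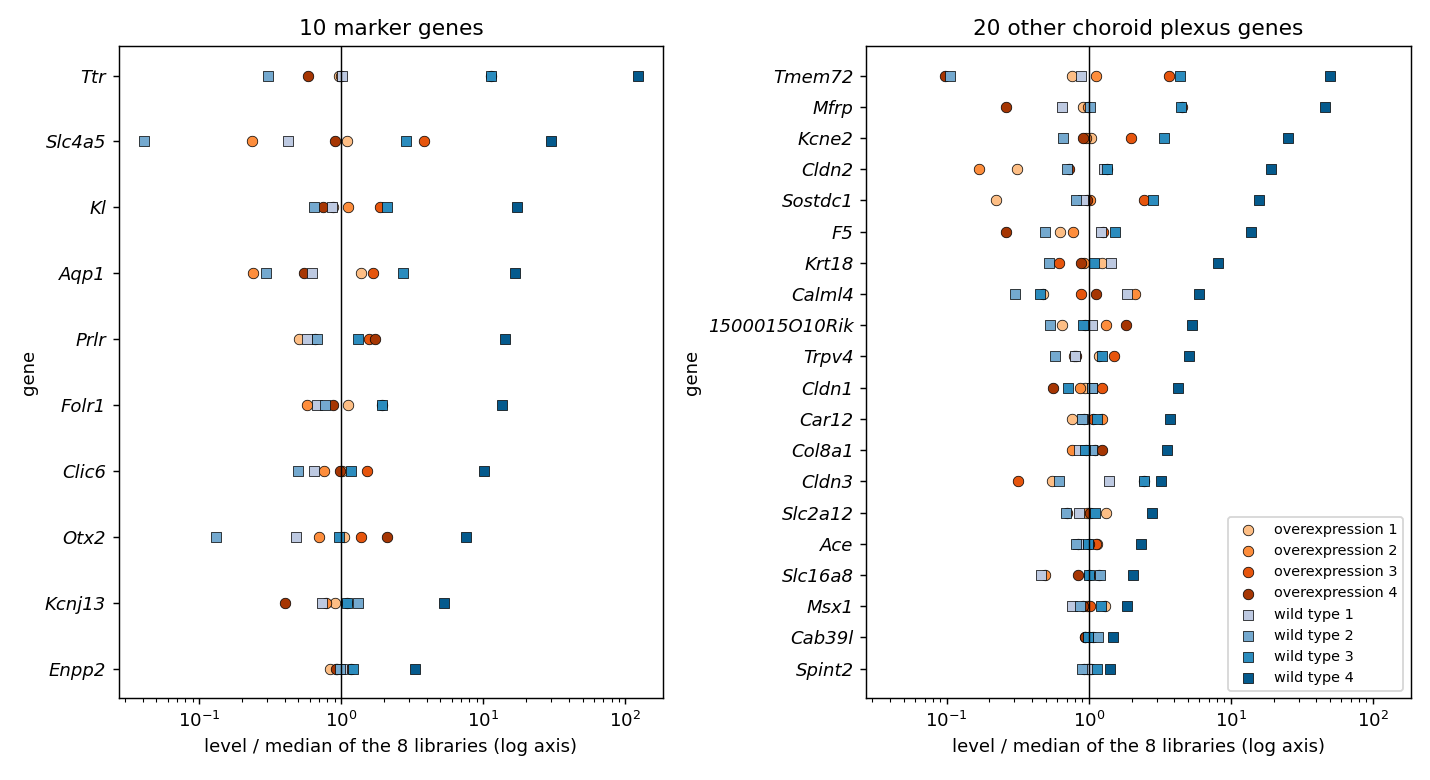
Level of each gene in each library divided by its median over the 8 libraries (log axis), for the 10 marker genes and for 20 other choroid plexus genes that passed the filter on low counts. Wild-type replicate 4 is the rightmost point in every row, from 1.42 times (Spint2) to 123 times (Ttr) the median. Kcne2 in wild-type replicate 1 and Cldn3 in replicate 2 labelled overexpression are at 0 counts and are not drawn.

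A list of 25 other genes known from choroid plexus epithelium was read beside the set. All 25 were highest in wild-type replicate 4, against 11.1% of all genes tested, and 20 of them passed the filter. The list was chosen with earlier results of these data known, so this is a description and no separate evidence. For Cldn3 the lead was small (0.673 CPM against 0.514 CPM in the next library). The largest ratios to the 8-library median were 49.98 for Tmem72, a membrane protein gene, 46.2 for Mfrp, which encodes a frizzled-related membrane protein, and 25.4 for Kcne2, a potassium channel accessory subunit. Tmem72 stood at 0.308, 0.454, 1.49 and 0.0395 CPM in the libraries labelled overexpression and at 0.356, 0.0427, 1.79 and 20.3 CPM in wild type. It had the same 3 libraries highest as Ttr, which held for 10 of the 25 genes and for 1.29% of all genes tested. The median gene of the 20 was 1.14 times its 8-library median in wild-type replicate 3. In replicate 3 labelled overexpression it was 1.09 times. The tight junction gene Cldn2 reached 9.39 CPM in wild-type replicate 4 against 0.0826 to 0.661 CPM in the other 7 libraries. The summed level of the 25 genes was 300.2 CPM in wild-type replicate 4, against 89.2 to 103 CPM in the libraries labelled overexpression and 87.6 CPM at the lowest in wild type. Among the more abundant genes of the list, Car12, a carbonic anhydrase gene with a mean of 10.4 CPM, stood at 28.9 CPM in wild-type replicate 4, 3.73 times its median. Ace, the angiotensin-converting enzyme gene, stood at 52.9 CPM there against 18.2 to 25.6 CPM in the other 7 libraries. Cab39l (mean 31.4 CPM) and Spint2 (mean 13.5 CPM), also abundant genes of the list, were only 1.49 and 1.42 times their medians in wild-type replicate 4.

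Of the 17636 genes tested, 65 stood at 3 times their median or more in wild-type replicate 4. They included all 10 marker genes and 14 of the 20 other choroid plexus genes. In each of the other 7 libraries between 12 and 50 genes did so, with at most 2 of the marker genes among them.

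Which genes outside the set followed Ttr was asked with edgeR's quasi-likelihood test of a slope on log2 CPM of Ttr, with the group label in the model and Benjamini-Hochberg adjustment over all genes. Of 17626 other genes, 7 passed (0.0397%), all with a positive slope. Of the 20 other choroid plexus genes 4 passed: Tmem72 (0.87 log2 units per log2 unit of Ttr, SE 0.062, adjusted p = 2.7e-06), Mfrp (0.72, SE 0.058, adjusted p = 3.7e-06), the cation channel gene Trpv4 (0.33, SE 0.046, adjusted p = 8.3e-04) and the Wnt and BMP antagonist gene Sostdc1 (0.50, SE 0.064, adjusted p = 0.0032). The other 3 were the desmosome gene Dsp (0.57, SE 0.067, adjusted p = 6.3e-05), the ferritin receptor gene Scara5 (0.54, SE 0.092, adjusted p = 0.0097) and the calcium-binding protein gene Cabp7 (0.080, SE 0.015, adjusted p = 0.038). At an unadjusted p under 0.05 the share was 6.02%. Ttr and the choroid plexus list were chosen with earlier results of these data known. Wild-type replicate 4 held 982 CPM of Ttr against at most 90.8 CPM elsewhere, and was highest for all 20 genes of the list. The slopes of these genes are therefore no separate evidence about the list. Without wild-type replicate 4, 1 gene passed, of the choroid plexus list, and without replicate 3 labelled overexpression 25 passed, 8 of them of that list, so the count turned on those libraries. Without replicate 4 labelled overexpression 13 passed with a positive slope and 1 with a negative one, and without wild-type replicate 3, 13 passed, all positive.

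Likeness to Ttr was also measured by Pearson's r of log2 CPM over the 8 libraries, as a description, since 1 library stands far from the rest. Among 14298 genes with a mean of at least 1 CPM, the highest values outside the set were for Cabp7 (r = 0.97), Tmem72 (r = 0.97), the copper-transporting ATPase gene Atp7b (r = 0.97) and the protease inhibitor gene Spint2 (r = 0.95). Without the 2 libraries whose Ttr level lay farthest from the median, r was 0.91, 0.89, 0.96 and 0.86. Replicate 3 labelled overexpression was then the 1 remaining library with high Ttr, so these values too span a single library that stands apart. The other copper ATPase gene, Atp7a, was also among the 10 most like it (r = 0.94, and 0.91 without the 2 libraries). Wild-type replicate 4 was 1.48 times the median for Cabp7, 1.75 times for Atp7b and 1.61 times for Atp7a, where it was 49.98 times for Tmem72. Of the marker genes themselves, Kl ranked 5, Slc4a5 ranked 12 and Otx2 ranked 145.

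All 10 marker genes had a lower fitted level in the libraries labelled overexpression than in wild type, and none passed the test. The log2 fold changes, overexpression minus wild type, ran from -3.27 (SE 2.03) for Ttr to -0.76 (SE 0.45) for Enpp2, with a median of -1.91, against 0.0016 over all genes tested. Adjusted p-values by edgeR were 0.41 to 0.84 over the 10 genes, and 0.034% of all genes passed. At an unadjusted p under 0.05 there was 1 of the 10, Kcnj13 (log2 -1.40, SE 0.56), against 10.7% of all genes. The groups overlapped for each of the 10 genes, where 5.84% of all genes had groups that did not. Mean levels of Ttr were 27.7 ± 42.0 CPM in the libraries labelled overexpression and 271 ± 476 CPM in wild type (SD, n = 4 each), so the spread exceeded the mean in both groups. For Kl the means were 4.57 ± 1.99 and 20.5 ± 31.7 CPM, and for Enpp2 267 ± 41.1 and 450.4 ± 309 CPM (SD, n = 4 each). The 20 other choroid plexus genes were also all below 0 (median log2 -0.87), with none past the threshold.

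That direction rested on wild-type replicate 4. Without it the median log2 fold change of the marker genes was -0.034, with 6 below 0 and 4 above, and none passed. Ttr then had a log2 fold change of -0.28 (SE 1.64), Kl of -0.056 (SE 0.53) and Folr1 of -0.013 (SE 0.45). Clic6 (0.47, SE 0.29), Slc4a5 (0.43, SE 1.34), Otx2 (1.30, SE 0.55) and Prlr (0.37, SE 0.42) turned above 0. Without both replicates 3 as well, a choice made after seeing the data, the median was 0.50 with 8 of the 10 above 0, and again none passed (edgeR adjusted p at least 0.32). In that fit Otx2 stood at log2 2.06 (SE 0.72) and Enpp2 at -0.16 (SE 0.068). The median of the 20 other choroid plexus genes without wild-type replicate 4 was -0.043, with 12 below 0 and 8 above. The size also depended on the method. With limma-voom the log2 fold change of Ttr was -1.51 (SE 2.50), of Kl -0.99 (SE 1.26) and of Slc4a5 -0.34 (SE 2.08).

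**Figure D3:**
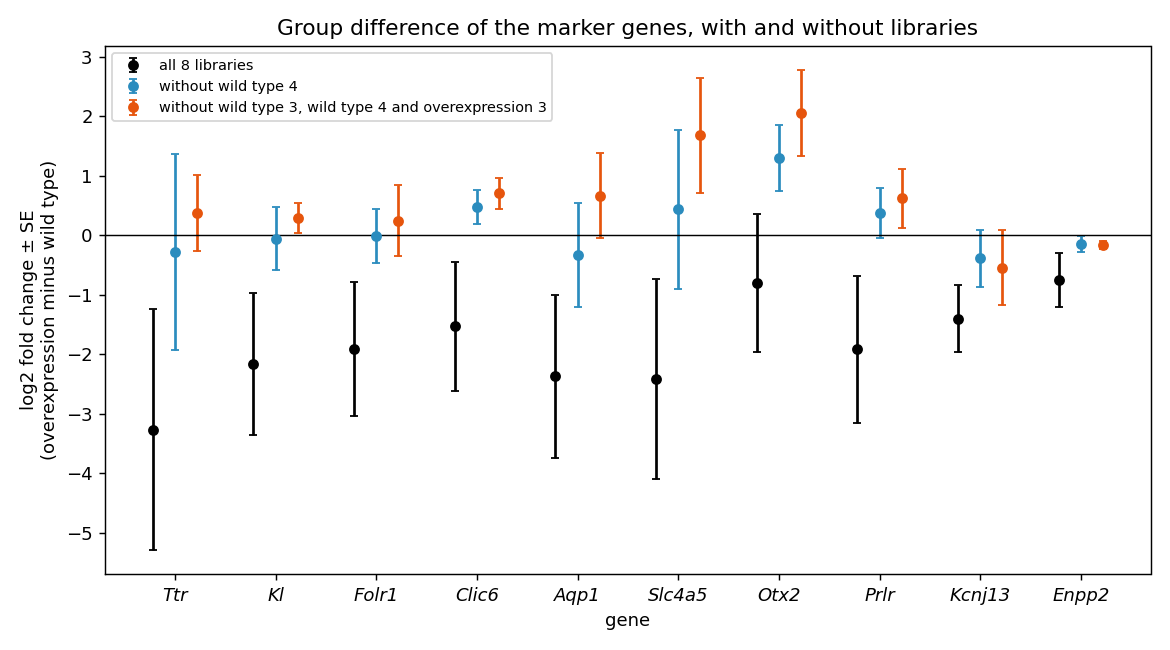
Log2 fold change of each marker gene, overexpression minus wild type, with its standard error, from edgeR fits with all 8 libraries, without wild-type replicate 4, and without that library and both replicates 3. With all libraries every point is below 0, from -3.27 to -0.76; without wild-type replicate 4 the median is -0.034.

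Ino80e itself did not follow these genes. Among the libraries labelled overexpression it was raised in replicates 1 and 4 (74.1 and 45.05 CPM), and stood at 23.4 and 23.3 CPM in replicates 2 and 3, inside the range of the wild-type libraries (19.5 to 25.5 CPM). Replicate 3, the one with high Ttr, is thus a library whose Ino80e level goes against its label, so every direction given here is that of labels. Library totals ran from 44762378 to 60490153 counts. Markers of the labelled tissue were present: 8 genes of cortical excitatory neurons summed to 2620 to 2916 CPM in the libraries labelled overexpression and 2442 to 2787 CPM in wild type, with none at 0 counts and the lowest sum in wild-type replicate 4.

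Ependymal cells line the ventricles beside the choroid plexus, and their 14 markers, all but 1 past the filter, were read beside the marker genes. Their summed level was 11.6, 31.6, 21.6 and 33.4 CPM in the libraries labelled overexpression and 22.2, 15.5, 18.1 and 37.6 CPM in wild type. Wild-type replicate 4 was the highest, at 1.72 times the median of the sums, where the summed level of the 25 other choroid plexus genes was 3.18 times its own. Both replicates 3, with raised Ttr, were at 0.987 and 0.826 times the median. Of the 14 markers, 7 were highest in wild-type replicate 4, where 11.1% of all genes tested were. Replicates 2 and 4 labelled overexpression were highest for 3 and 4 of them. Foxj1, the regulator of motile cilia, stood at 4.77, 10.7, 7.13 and 10.2 CPM and, in wild type, at 7.02, 3.99, 7.30 and 11.2 CPM. Replicate 2 labelled overexpression, with 31.6 CPM of ependymal markers, held 7.91 CPM of Ttr, so the 2 sets did not share one order. Mia, the marker that did not pass, was at 0 counts in 5 libraries.

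Markers of other cells did not single out wild-type replicate 4 to the same extent. The 15 leptomeningeal and fibroblast genes summed to 803 to 935 CPM in the libraries labelled overexpression and 675 to 862 CPM in wild type, with 707 CPM in wild-type replicate 4. The 9 endothelial genes summed to 387 to 421 CPM and 371 to 461 CPM, with their lowest sum in wild-type replicate 4. Blood genes, 6 in the list and led by the globin genes Hbb-bs and Hba-a1, stood at 108 to 148 CPM and 108 to 232 CPM, highest in wild-type replicate 3. The 10 striatal neuron genes summed to 220.4 to 504 CPM and 234 to 449 CPM, and the 14 septal, thalamic and hypothalamic genes to 71.7 to 95.7 CPM and 66.7 to 101 CPM, the latter highest in wild-type replicate 4. The 8 liver markers summed to 0.215 to 0.462 CPM and 0.219 to 0.705 CPM, with 0.277 CPM in wild-type replicate 4. The 6 markers of retinal pigment epithelium, which also expresses Ttr, Otx2 and Kcnj13, summed to 20.1 to 25.0 CPM and 21.7 to 24.6 CPM, with 22.7 CPM in wild-type replicate 4. Of these 6, 3 passed the filter, and most of the sum was Rlbp1 (mean 20.8 CPM, against 1.32 for Rpe65 and 1.04 for Best1). That sum therefore says little about the other markers of this epithelium. Read singly in wild-type replicate 4, Rpe65 was at 0.933 times its median and Best1 at 1.015 times, both at low levels. Whether choroid plexus was taken along with the cortex in the dissection was not tested.

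**Figure D4:**
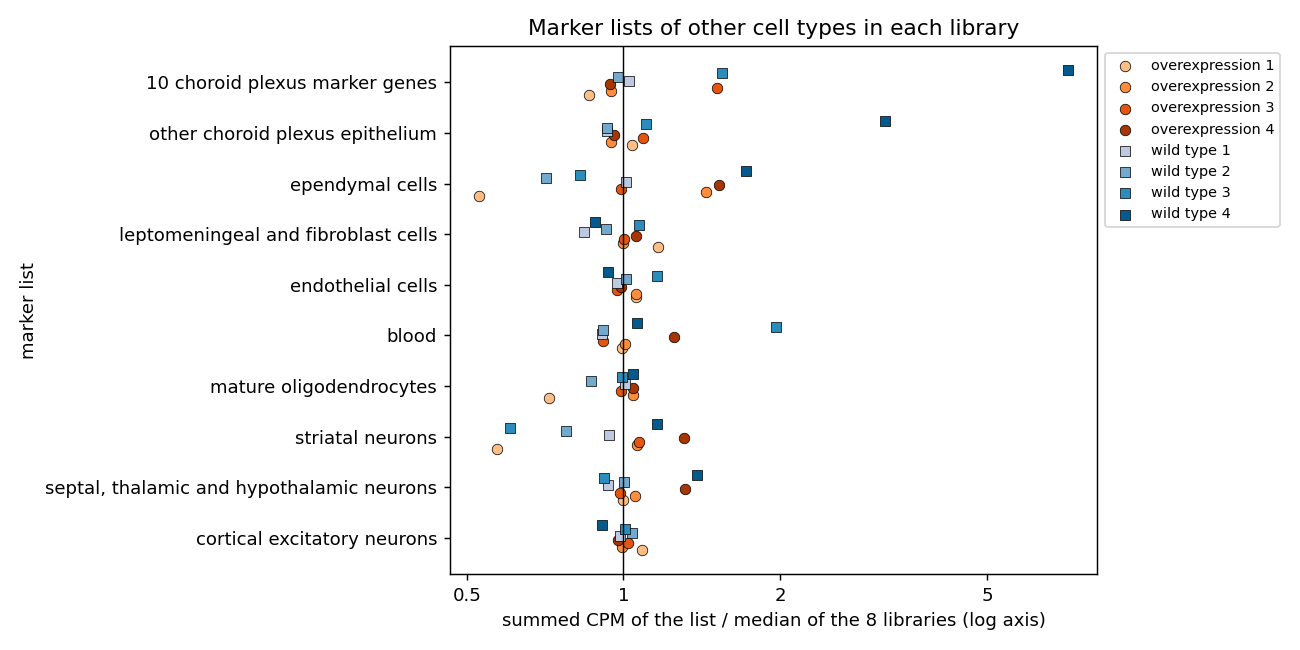
Summed CPM of each marker list in each library divided by its median over the 8 libraries (log axis). The choroid plexus lists stand apart in wild-type replicate 4, ependymal markers reach 1.72 times the median there, and blood genes are highest in wild-type replicate 3.

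Genes of the pathways that the marker genes serve did not pass either test. This held for 14 genes of ion and water transport into cerebrospinal fluid (median log2 -0.066 between the groups), 9 of thyroid hormone transport and response (-0.091), 7 tested genes of folate uptake and use (-0.076), 8 of lysophosphatidic acid signalling (0.056) and 9 of prolactin and klotho signalling (0.058). In wild-type replicate 4 the median gene of each of these lists was between 1.01 and 1.06 times its 8-library median, and the median of all genes tested was 0.998. Of the 14 ion and water transport genes, 6 were highest in that library, against 11.1% of all genes tested. In each of the other pathway lists 0 to 2 genes were. The 6 include Kcne2 (25.4 times its median) and Car12 (3.73 times), which also belong to the choroid plexus list.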

How the data were processed

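Total RNA was extracted with Trizol, poly(A) RNA was selected and strand-specific libraries were made by the dUTP method, per the labels' protocols. The authors deposited raw read counts per Ensembl gene. Trimmomatic 0.39, STAR 2.7.10, featureCounts 2.0.3, mm10 and GRCm38 appear in the submitters' processing notes, without their roles; the sources used here do not give the strand setting or the handling of multi-mapping reads. In every library a count of 2 was more frequent than a count of 1 (1300 against 711 genes in wild-type replicate 4), so both ends of a pair may have been counted, which would make counting intervals too narrow.

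Symbols, exon lengths and GC content came from GENCODE M21 (54409 identifiers matched, 37 did not). Totals ran from 44762378 to 60490153 counts. Genes were filtered with filterByExpr and tested with edgeR 4.0.16 (robust quasi-likelihood, TMM, Benjamini-Hochberg, threshold 0.05) in R 4.3.3, for the group label and for a slope on log2 CPM of Ttr (prior count 2). SE is the log2 value divided by the square root of F. Alternatives were other scalings and filters, a fit without robust estimation, limma-voom (limma 3.58.1), DESeq2 1.42.0, a GC offset (spline, 5 degrees of freedom), the replicate number as a block, and leaving out libraries. The tests were tested on simulated data with planted group differences and slopes. That does not show how the group test behaves where a single library stands far from the rest of its group. No 2 libraries were copies (chi-square per degree of freedom at least 9.57).

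The marker genes, lists and tests were chosen with earlier results of these data known. Named were the 10 marker genes, up to 10 genes most like Ttr, up to 10 with the lowest p for the slope, up to 8 other choroid plexus genes and up to 4 genes per cell type list by mean level; Tmem72, Mfrp, Kcne2 and Cldn2 were named for their ratios, after their values were seen.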

Additional observations from a re-analysis of the deposited data

Results flagged for a closer look

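In wild type, 1 library of 4 stood apart from the other 3 for all 10 marker genes. The gap from wild-type replicate 4 to the next library, as a share of the group's whole range, was 0.910 for Ttr, 0.913 for Kl, 0.902 for Folr1, 0.929 for Clic6, 0.852 for Aqp1, 0.904 for Slc4a5, 0.888 for Otx2, 0.946 for Prlr, 0.875 for Kcnj13 and 0.901 for Enpp2, each above the critical value of 0.829 for 4 samples. The genes were chosen for varying together across these libraries, so these values describe that choice and are no separate evidence. The summed level of the other choroid plexus genes in wild type had a share of 0.923, with the same library highest. In the libraries labelled overexpression the share was 0.962 for Ttr, with replicate 3 highest. Beside these, blood genes in wild type (0.853, replicate 3 highest), liver genes in wild type (0.880, replicate 2 highest, on a few counts per gene) and mature oligodendrocyte genes in the libraries labelled overexpression (0.832, replicate 1 lowest) stood apart. Chance alone marks about 1 in 20 groups, and 15 of 52 were marked here, 10 of them marker genes in wild type, so this count cannot be read against chance.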

How the results depend on the processing

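No marker gene passed the group test in any alternative that gave it an adjusted p, 16 to 18 per gene. The lowest was 0.058, for Kcnj13. DESeq2 gave no adjusted p for 5 of the 10. With limma-voom and with the replicate block the log2 values were nearer 0, at -1.51 and -1.03 for Ttr, -0.99 and -0.89 for Kl, -0.34 and -0.81 for Slc4a5 and -0.45 and -0.41 for Clic6, and Otx2 turned above 0 (0.47 and 0.28). Without wild-type replicates 3 and 4 and overexpression replicate 3, chosen after seeing the data, 8 genes turned above 0: Ttr 0.38, Kl 0.29, Folr1 0.25, Clic6 0.70, Aqp1 0.67, Slc4a5 1.68, Otx2 2.06 and Prlr 0.62. Over the 8 fits without 1 library the log2 values ran from -5.33 to -0.28 for Ttr, -2.53 to -0.056 for Kl, -2.31 to -0.013 for Folr1, -1.89 to 0.47 for Clic6, -2.80 to -0.33 for Aqp1, -3.47 to 0.43 for Slc4a5, -1.20 to 1.30 for Otx2, -2.28 to 0.37 for Prlr, -1.68 to -0.39 for Kcnj13 and -0.94 to -0.15 for Enpp2, the upper end each time without wild-type replicate 4.

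Over all genes, 2 were called higher and 4 lower. These counts were 55 and 28 with no low-count filter, 1 higher with at least 1 CPM in 4 libraries, 1 and 1 without robust estimation, 0 and 1 with limma-voom, 0 and 1 with the replicate block, 27 and 17 with DESeq2, and 0 lower without the 3 libraries. Leaving out 1 library gave 0 to 4 higher and 1 to 4 lower. The slope on Ttr called 7 genes as positive, 0 as negative and 4 of the choroid plexus list. These were 49, 23 and 13 with no low-count filter, 1 positive and 1 of the list with at least 1 CPM in 4 libraries, 14 and 9 without robust estimation, 13 positive without the group term, and 1 negative and 7 of the list with the replicate block. Leaving out 1 library gave 1 to 25 positive, 0 to 1 negative and 1 to 8 of the list. The cause was not tested. The ratio of highest to lowest library moved past its counting interval for Enpp2 with no scaling (4.13 from 3.98). Same-numbered libraries of the 2 groups deviated together with correlations of -0.0426, -0.0259, 0.0744 and 0.0485, so the numbers are not shown to pair them. Of the marker genes, 6 had at most 128 counts in each library but wild-type replicate 4, which limits the precision of their low levels.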

Other observations

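Genes outside both choroid plexus lists also stood high in wild-type replicate 4. There were 41 at 3 times their 8-library median or more, named here after their values were seen. Among them were the desmosome gene Dsp at 5.84 CPM (15.6 times its median), the tight junction gene Tjp3 at 2.16 CPM (5.58 times) and the P-cadherin gene Cdh3 at 1.39 CPM (5.55 times). The E-cadherin gene Cdh1 was at 0.875 times its median there. Abca4, a retinoid transporter known from the retina, stood at 17.7 CPM (6.27 times), and Crhr2, a receptor for urocortins, at 2.24 CPM (3.79 times). Drc7, of the dynein regulatory complex of motile cilia, stood at 10.02 CPM (4.12 times). In wild-type replicate 3, Dsp was 1.95 times its median, Abca4 1.30 times and Drc7 0.735 times, so not all of these genes were raised in that library, where Ttr was 11.4 times its median.

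The levels of striatal neuron genes crossed the choroid plexus order. Their sum was 0.606 times its median in wild-type replicate 3 and 1.16 times in wild-type replicate 4, although Ttr was above its median in both.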
